A study of Mus musculus with 12 samples.

Results

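The phagocyte NADPH oxidase and its Rac GTPases are described here by 8 genes, chosen by symbol from the 25230 genes of the deposited table: the membrane subunits Cybb and Cyba, the cytosolic subunits Ncf1 and Ncf4, the small GTPases Rac1, Rac2 and Rap1a, and the proton channel Hvcn1. They are not every gene of the complex. All 8 were in the table once, and all 8 passed a filter of 1 TPM (a transcript level scaled to gene length and to the library's total) in at least 3 libraries. The RNA-seq libraries came from macrophages that were grown from mouse bone marrow with the growth factor M-CSF, in 4 groups of 3: Piezo1 KO cells given Candida albicans, Piezo1 KO cells given PBS, WT cells given C. albicans and WT cells given PBS. The sources used here do not give the mouse strain, the age, the kind of knockout allele, the fungal dose or the exposure time. The titles of the KO PBS libraries say DMSO where their treatment label says PBS.

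In phagocytes the oxidase carries electrons from NADPH in the cytosol across the membrane of the phagosome onto oxygen, which makes superoxide. Cybb is the catalytic subunit that binds flavin and haem, and Cyba is its membrane partner, which stabilises it and docks the cytosolic subunits. On activation, phosphorylated Ncf1, the organiser, and Ncf4, which binds phosphatidylinositol 3-phosphate on phagosomes, move to the membrane together with GTP-bound Rac. Rap1a is a GTPase found with the purified human membrane subunits, and Hvcn1 lets protons follow the electrons out. Loss of the oxidase in people causes chronic granulomatous disease, with recurrent bacterial and fungal infections.

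Promoters were in the RefSeq table for 3 of the 8 genes, and they are shown because these are the catalytic subunit, which had the largest knockout effect, its membrane partner, which had a small one, and the cytosolic organiser. Each runs from 250 bases before the RefSeq start, in the GRCm38.p6 build on the minus strand, at chrX:9469295-9469574 for Cybb, chr8:122432911-122433190 for Cyba and chr5:134229596-134229875 for Ncf1. The Cybb window lies inside the annotated span of the gene, which has a further start upstream. Capitals mark motif matches.
Cybb: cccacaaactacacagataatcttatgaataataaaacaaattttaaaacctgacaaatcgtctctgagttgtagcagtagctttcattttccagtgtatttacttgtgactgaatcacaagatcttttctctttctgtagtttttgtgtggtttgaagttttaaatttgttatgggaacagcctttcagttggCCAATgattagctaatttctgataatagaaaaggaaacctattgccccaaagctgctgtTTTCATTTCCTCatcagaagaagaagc
Cyba: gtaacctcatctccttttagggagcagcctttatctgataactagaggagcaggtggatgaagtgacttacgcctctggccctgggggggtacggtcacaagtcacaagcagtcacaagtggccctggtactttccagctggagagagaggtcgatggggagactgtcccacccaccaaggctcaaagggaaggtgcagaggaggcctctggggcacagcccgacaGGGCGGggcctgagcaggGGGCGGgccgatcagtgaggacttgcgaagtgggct
Ncf1: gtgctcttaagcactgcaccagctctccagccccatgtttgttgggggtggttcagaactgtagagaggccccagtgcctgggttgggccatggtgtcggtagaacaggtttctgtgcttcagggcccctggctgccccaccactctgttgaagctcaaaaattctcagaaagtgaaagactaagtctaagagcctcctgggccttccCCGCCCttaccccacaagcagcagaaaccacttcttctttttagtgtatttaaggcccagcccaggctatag
Searched on both strands were GGAANN followed directly by GAAA (a joint site of ETS and IRF factors), GAGGAA (a core bound by the ETS factor PU.1), CCAAT and GGGCGG (a GC box). In Cybb the joint ETS and IRF motif lay on the opposite strand at bases 4 to 13 after the start and overlapped a GAGGAA match at bases 10 to 15. A CCAAT match lay between 56 and 52 bases before the start of Cybb. Cyba held GC boxes at 24 to 19 and at 6 to 1 bases before its start, and Ncf1 held 1 at 42 to 37 bases before its start, on the opposite strand. Of 32851 promoters of this length, 2.55% held the joint motif, 25.98% GAGGAA, 36.09% CCAAT and 34.69% GGGCGG. These are matches of letters and say nothing of binding.

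Reads in genes ranged from 16400119 to 25741091 per library, and the 8 genes had between 517 reads (Hvcn1) and 30105 reads (Cybb) in a library. Piezo1, the targeted gene, averaged 64.9 ± 0.756 TPM in KO cells with C. albicans and 65.4 ± 2.72 TPM in KO cells with PBS, against 136.9 ± 8.68 and 134.6 ± 4.69 TPM in WT cells (SD, n = 3 each), so the KO level was 47.4% of WT with C. albicans and 48.6% with PBS. WT C. albicans replicate 1 stood apart, differing from its 2 replicates by 15.3 and 16.2 times counting noise (chi-square over its degrees of freedom), where the other 10 replicate pairs differed by 1.49 to 4.60 times, and calls of the 8 genes that rest on it are given with and without it. All 8 macrophage markers examined were expressed, and their summed level, mostly of Lyz2, was 15969 to 16078 TPM in KO cells with C. albicans and 15425 to 15664.0 TPM in KO cells with PBS, against 21935 to 23369.9 and 25731 to 26277 TPM in WT cells. The neutrophil genes S100a9, Ly6g and Retnlg were at 0 in every library, and the 11 neutrophil genes summed to 65.9 to 72.3, 70.4 to 74.4, 74.6 to 84.9 and 90.7 to 96.3 TPM in the same order of groups, mostly from Csf3r. The part of these markers in the results was not tested. In bulk RNA, fewer cells of a type and less RNA per cell cannot be told apart. Nothing in the labels says that libraries came from separate mice or cultures, so p-values measure the spread between libraries, which may be technical.

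On the TPM scale, which corrects for length, Cyba was the most abundant of the 8 genes in every group and Hvcn1 the least. Mean levels of Cyba were 2584 TPM in KO cells with C. albicans, 2429 in KO cells with PBS, 2388 in WT cells with C. albicans and 2372 in WT cells with PBS. In WT cells Cybb came next, at 579 ± 107 TPM with C. albicans and 482 ± 22.1 TPM with PBS, above Ncf1, Ncf4, Rac1, Rac2, Rap1a and Hvcn1. In KO cells with PBS Ncf4 took that place at 336 ± 6.76 TPM, and Rac1, Cybb and Ncf1 followed with neighbouring ranges that overlapped. Ncf1 and Ncf4 overlapped in WT cells with PBS. Over the 12 libraries Cybb varied more than 93.4% of the 11280 genes tested (SD of 0.42 on the log2 scale), while Rac1 varied more than 0.266% of them and Rac2 more than 1.26%.

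**Figure D1:**
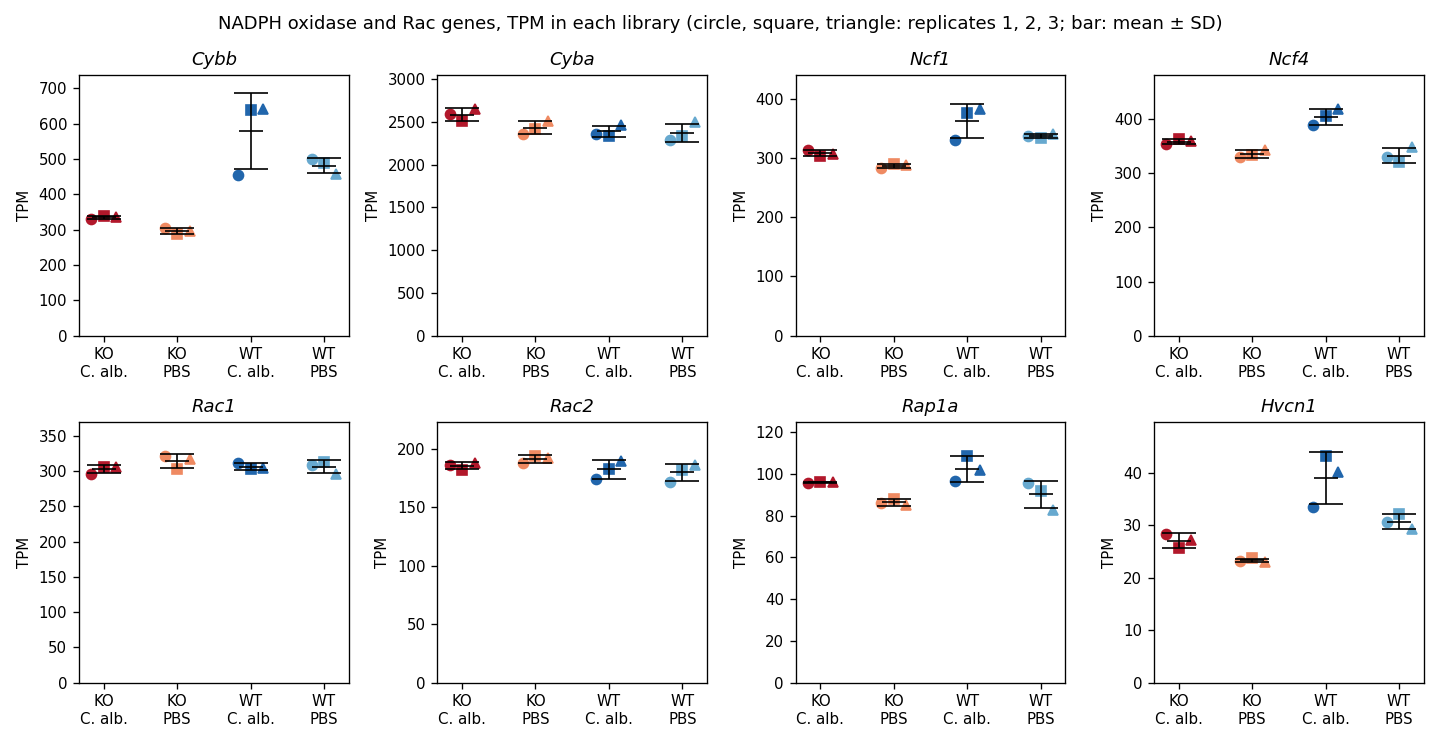
Level of each of the 8 genes in TPM (vertical axes, from 0) in the 12 libraries, by group, with the mean and SD of the 3 libraries as bars. Cybb and Hvcn1 were lower in both KO groups than in the WT groups with the same treatment, while Rac1 stayed between 295.9 and 322 TPM in all 12 libraries.

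The knockout effect asks which oxidase genes differ between Piezo1 KO and WT cells given the same treatment. Cybb, the catalytic subunit, had the largest fall of the 8 in both conditions, Hvcn1 and Ncf1 fell in both, Ncf4 passed the test with C. albicans, and Rac1, Rac2 and Rap1a passed the test in neither. With PBS 0 of 8 were called higher and 3 lower by limma at an adjusted p under 0.05, where 6.14% of all tested genes were called higher and 26.2% lower. With C. albicans 1 of 8 was called higher and 4 lower, where 12.4% of all tested genes were called higher and 27.5% lower. The median log2 fold change of the 8 was -0.13 with C. albicans and -0.022 with PBS, beside -0.049 and -0.083 over all genes tested. KO and WT libraries of a treatment lay wholly apart for 6 of 8 genes with C. albicans, 1 higher and 5 lower in KO cells, where 16.0% of all tested genes lay wholly higher and 33.3% wholly lower. With PBS it was 4 of 8, 1 higher and 3 lower, where the shares of all genes were 10.1% and 36.1%. Log2 fold changes were taken of TPM + 1, and comparisons that share a group of libraries are not independent of each other.

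Cybb, on chromosome X (9435252 to 9487766, GRCm38.p6), had 331, 338 and 337 TPM in KO cells with C. albicans, against 456, 640.1 and 642 TPM in WT cells with C. albicans. It had 305, 287 and 297 TPM in KO cells with PBS, against 500.2, 488 and 457 TPM in WT cells with PBS. Every KO library lay below every WT library of the same treatment, and the lowest WT library was still above the highest KO library. The KO mean was 57.8% of WT with C. albicans (log2 fold change -0.77 ± 0.098 SE, adjusted p = 6.0e-05, limma) and 61.5% with PBS (-0.70 ± 0.098, adjusted p = 2.3e-04). Without WT C. albicans replicate 1, whose Cybb was the low value of its group, the difference with C. albicans was -0.93 (limma adjusted p = 3.2e-09). Cybb kept its direction and its call in both conditions under all alternatives run.

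Its membrane partner Cyba, on chromosome 8 (122424771 to 122432940), had 2592, 2509.5 and 2652 TPM in KO cells with C. albicans, against 2358, 2339.7 and 2467 TPM in WT cells with C. albicans. With PBS it had 2360.2, 2418 and 2509 TPM in KO cells, against 2290.1, 2333 and 2493 TPM in WT cells. The groups overlapped with PBS and did not overlap with C. albicans. The rise with C. albicans was small, at 108.2% of WT (0.11 ± 0.036, limma adjusted p = 0.024), and with PBS the difference was 0.035 ± 0.036 (adjusted p = 0.504). Removing the trend of fold change with gene length and GC content turned the sign in both conditions, to -0.12 with C. albicans (limma adjusted p = 0.0045) and -0.13 with PBS (adjusted p = 0.0037). It was larger with median-ratio factors (0.18, limma adjusted p = 0.0047) and upper quartiles (0.22, 0.0011), and Cyba was then called higher with PBS as well (0.13, adjusted p = 0.029, and 0.15, 0.016), as it was with voom (0.13, 0.016). With the variance trend off the adjusted p with C. albicans was 0.075, and with no filter on low values 0.068. Leaving out WT C. albicans replicate 2 ended the call with C. albicans (0.10, limma adjusted p = 0.083), as did leaving out KO C. albicans replicate 1 (0.11, 0.064) or replicate 3 (0.10, 0.094). Cyba lies 48757 bases from Piezo1, the targeted gene, on the same chromosome, and the part of that position in its level was not tested.

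Hvcn1, the proton channel on chromosome 5 (122206805 to 122242297), had 28.4, 25.7 and 27.2 TPM in KO cells with C. albicans, against 33.5, 43.3 and 40.3 TPM in WT cells with C. albicans. With PBS it had 23.1, 23.7 and 23.1 TPM in KO cells, against 30.7, 32.2 and 29.3 TPM in WT cells. No KO library reached the lowest WT library of its treatment. The log2 fold change was -0.50 ± 0.078 with C. albicans (limma adjusted p = 2.4e-04) and -0.38 ± 0.078 with PBS (adjusted p = 0.0025), and both calls held under all alternatives run. Exons of Hvcn1 overlap Tctn1 on the other strand, and 52.1% of the 50-base windows of its longest transcript are also in Tctn1. The sources used here do not say whether counting used strand, so reads of both genes may not be told apart. Tctn1 itself was at 5.21 ± 0.166, 5.64 ± 0.474, 4.86 ± 0.527 and 5.80 ± 0.597 TPM in KO C. albicans, KO PBS, WT C. albicans and WT PBS cells.

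Of the cytosolic subunits, Ncf1, on chromosome 5 (134220053 to 134229628), had 314, 303.5 and 306 TPM in KO cells with C. albicans, against 329.6, 376 and 383 TPM in WT cells with C. albicans. With PBS it had 283, 289 and 287 TPM in KO cells, against 337, 333 and 341 TPM in WT cells. KO and WT libraries did not overlap in either condition. The log2 fold change was -0.23 ± 0.046 with C. albicans (limma adjusted p = 0.0015) and -0.23 ± 0.046 with PBS (adjusted p = 0.0021). The call with PBS was lost when libraries were rescaled by median-ratio factors (-0.13, limma adjusted p = 0.084) or upper quartiles (-0.12, 0.15), and the call with C. albicans was lost with upper quartiles (-0.13, 0.090). Ncf1 shares 8.15% of its 50-base windows, mostly with Gtf2ird2, which overlaps it on the other strand and was at most 7.44 TPM in any library.

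Ncf4, on chromosome 15 (78244164 to 78262582), had 353, 363 and 359 TPM in KO cells with C. albicans, against 389, 405.5 and 419 TPM in WT cells with C. albicans. With PBS it had 330.3, 334 and 343 TPM in KO cells, against 329.5, 320.5 and 348 TPM in WT cells. The groups were apart with C. albicans and overlapped with PBS. Ncf4 fell with C. albicans by 0.17 ± 0.036 on the log2 scale (limma adjusted p = 0.0022) and differed by 0.015 ± 0.036 with PBS (adjusted p = 0.793). The call with C. albicans was lost with median-ratio factors (-0.11, limma adjusted p = 0.051) and with upper quartiles (-0.069, 0.23). With the length and GC trend removed, Ncf4 was lower with PBS as well (-0.11, limma adjusted p = 0.013) and lower with C. albicans at -0.35 (1.2e-06). Upper quartiles instead called Ncf4 higher in KO cells with PBS (0.13, limma adjusted p under 0.05), so its direction there rests on the processing.

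The GTPases had small knockout effects. Rac1, which in macrophages serves both the oxidase and the actin cytoskeleton, averaged 302.8 ± 5.47 TPM in KO cells with C. albicans and 314 ± 9.51 TPM in KO cells with PBS, against 306.5 ± 4.82 and 306 ± 9.17 TPM in WT cells. Rac2, the form restricted to blood cells, averaged 186 ± 3.25 and 191 ± 3.42 TPM in KO cells, against 182 ± 7.75 and 180.1 ± 7.22 TPM in WT cells, in the same order of treatments. Rap1a averaged 96.0 ± 0.345 and 86.3 ± 1.56 TPM in KO cells, against 102 ± 6.09 and 90.1 ± 6.63 TPM in WT cells. None of these 3 passed the test for the knockout effect, with log2 fold changes from -0.090 (Rap1a with C. albicans) to 0.088 (Rac2 with PBS, limma adjusted p = 0.106). After rescaling by median-ratio factors Rac1 and Rac2 were called higher in KO cells with PBS (0.14, adjusted p = 0.0034, and 0.19, adjusted p = 0.0084, limma). Upper quartiles and voom called both with PBS too. With C. albicans, upper quartiles called both higher (Rac1 0.087, limma adjusted p = 0.027, and Rac2 0.13, 0.039). With the length and GC trend removed, with or without the replicate block, Rap1a was called lower with PBS (-0.13, lowest limma adjusted p = 0.014). Rac2 made up 38.0% ± 0.689 of the Rac1 and Rac2 TPM in KO cells with C. albicans and 37.9% ± 1.11 with PBS, against 37.3% ± 1.31 and 37.0% ± 1.46 in WT cells. Of the 50-base windows of the longest Rac1 transcript, 55.0% are also in Daglb, which overlaps Rac1 on the other strand. Rap1a shares 9.46% of its windows, mostly with the predicted gene Gm9392. The longest Rac1 transcript held 4110 windows, while the length behind the Rac1 TPM is 2595 bases. Both levels are therefore uncertain, by an amount that these shares do not give. Daglb averaged 90.6 ± 2.92, 94.6 ± 0.552, 71.4 ± 11.4 and 114.6 ± 2.16 TPM in KO C. albicans, KO PBS, WT C. albicans and WT PBS cells.

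**Figure D2:**
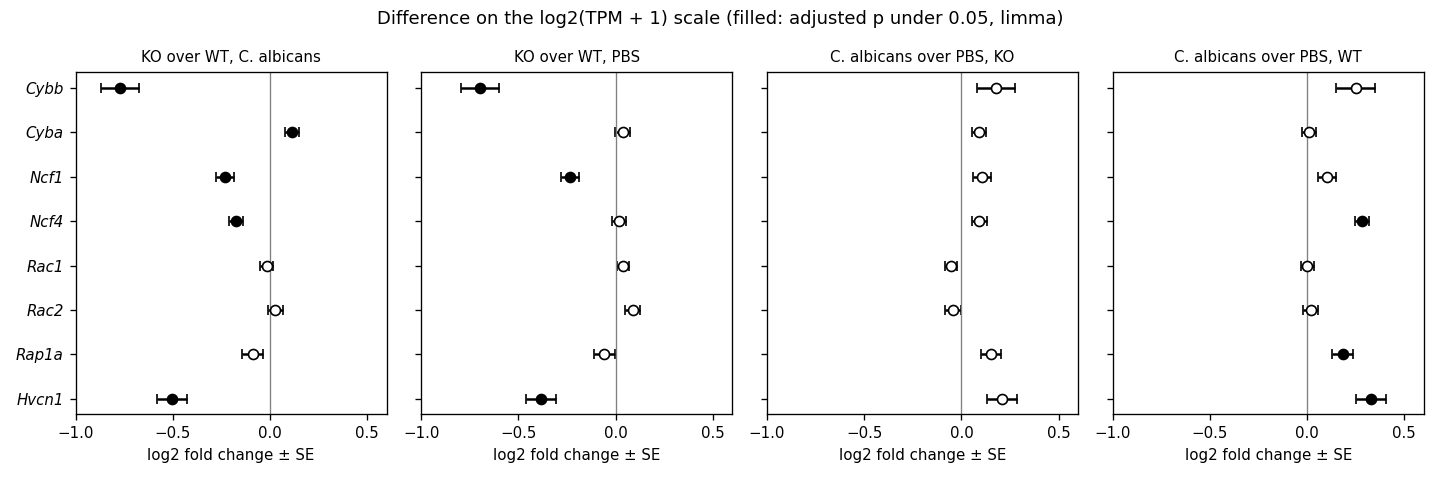
Log2 fold change of each gene in 4 comparisons (horizontal axes, log2(TPM + 1) scale, bars ± SE of the limma fit), with filled points at an adjusted p under 0.05. Cybb was lowest in both KO over WT panels, at -0.77 and -0.70, and no point of the C. albicans over PBS panel in KO cells is filled.

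Cybb, Cyba, Ncf1 and Ncf4 were also set against each other inside each library. Within a library, Cyba had 7.84, 7.43 and 7.87 TPM per TPM of Cybb in KO cells with C. albicans, against 5.17, 3.66 and 3.84 in WT cells with C. albicans. With PBS it had 7.74, 8.42 and 8.45 in KO cells, against 4.58, 4.78 and 5.45 in WT cells. The ranges did not overlap between genotypes in either condition. Such a ratio does not depend on the scaling of the library, though it does depend on length trends, since the length behind the TPM of Cybb is 4750 bases and that of Cyba is 759. Set against Cyba on the log2 scale, Ncf1 was -3.07 ± 0.039 in KO cells with C. albicans and -3.08 ± 0.036 with PBS, against -2.72 ± 0.104 and -2.81 ± 0.053 in WT cells, and the genotypes did not overlap. Ncf4 over Cyba was -2.85 ± 0.052 and -2.85 ± 0.016 in KO cells, against -2.56 ± 0.036 and -2.83 ± 0.034 in WT cells, so the genotypes were apart with C. albicans and overlapped with PBS. Set against Cybb instead, Ncf4 was 0.096 ± 0.0059 and 0.18 ± 0.057 in KO cells, against -0.50 ± 0.236 and -0.53 ± 0.120 in WT cells, so the order of the 2 genes on the TPM scale was turned round in KO cells. With the length and GC trend removed that order held in KO cells with PBS (0.041) and was lost with C. albicans (-0.017). The difference in log2 Cybb over Cyba between KO and WT cells was then -0.51 with either treatment, against -0.89 with C. albicans and -0.73 with PBS on TPM as deposited, and the groups still did not overlap. For Ncf1 over Cyba it was -0.17 with C. albicans, where the groups then overlapped, and -0.098 with PBS, against -0.35 and -0.27. These ratios are descriptions and carry no test.

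**Figure D3:**
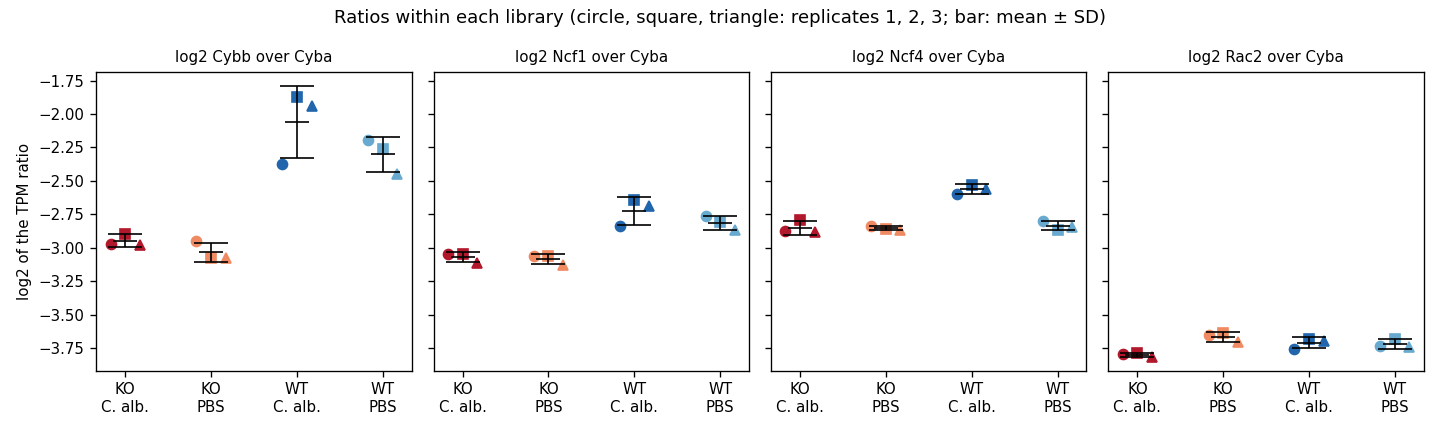
Log2 of the TPM ratio of Cybb, Ncf1, Ncf4 and Rac2 to Cyba within each of the 12 libraries (vertical axis), by group, with the mean and SD of 3 libraries as bars. Cybb over Cyba lay between -3.08 and -2.89 in KO libraries and between -2.45 and -1.87 in WT libraries.

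Scaling and gene length both bear on these differences. Of the genes called in KO cells with PBS, 693 were higher and 2951 lower on TPM as deposited, 1607 and 1594 with median-ratio factors, and 1827 and 1425 with upper-quartile factors. With C. albicans the counts were 1402 higher and 3101 lower, then 2172 and 2457, then 2820.0 and 2036. Upper-quartile factors moved the median of all tested genes in the PBS comparison by 0.11 on the log2 scale. A library factor moves all genes alike, so values taken relative to that median are almost fixed by construction: with PBS, as deposited, they were -0.62 for Cybb, -0.30 for Hvcn1, -0.15 for Ncf1 and 0.12 for Cyba. For the response in WT cells 1814 higher and 3192 lower became 2577 and 2063 with median-ratio factors, in KO cells 446 and 355 became 612 and 172, or 522 and 228 with upper quartiles, and for the interaction 849 and 714 became 664 and 947. In the knockout effect with PBS 442 of the 2820 shortest genes were called higher and 174 lower, while 23 of the 2820 longest were called higher and 1519 lower. Cybb, with 75.7% of tested genes shorter than it, lies among the 2820 longest and Cyba, with 5.93%, among the shortest. Removing the length and GC trend left Cybb lower at -0.63 with C. albicans (limma adjusted p = 1.8e-04) and -0.64 with PBS (adjusted p = 3.0e-04), and moved Cyba from above to below 0.

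**Figure D4:**
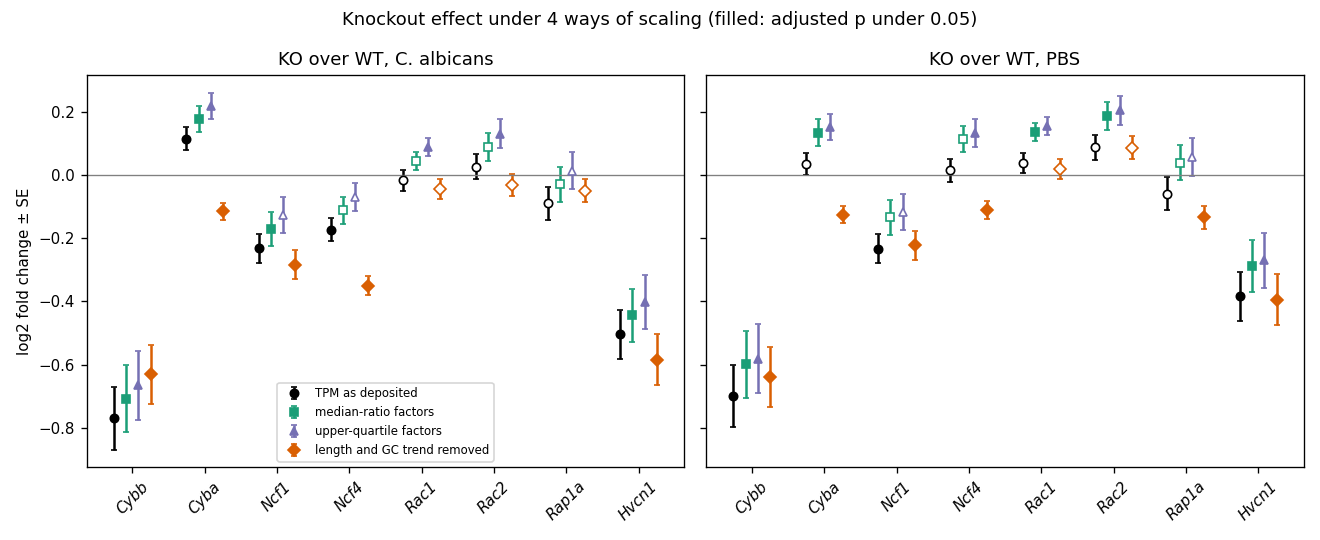
Knockout effect on each gene with C. albicans and with PBS (vertical axis, log2 fold change, bars ± SE) on TPM as deposited, with median-ratio factors, with upper-quartile factors and with the trend in gene length and GC content removed. Cybb and Hvcn1 stay below 0 with filled points (adjusted p under 0.05) throughout, while Cyba has values on both sides of 0.

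The response to C. albicans asks which of these genes the fungus moved in cells of each genotype. In WT cells 3 of 8 were called higher and 0 lower, where 16.1% of all tested genes were called higher and 28.3% lower. These were Ncf4, Hvcn1 and Rap1a, the 3 genes whose libraries lay wholly higher with C. albicans, where 18.3% of all tested genes lay wholly higher and 32.6% wholly lower, while Rac1, Rac2 and Cyba differed by at most 0.018 on the log2 scale. The median of the 8 was 0.14, beside -0.071 over all genes tested. Ncf4 had 389, 405.5 and 419 TPM with C. albicans, all above its 329.5, 320.5 and 348 TPM with PBS (0.28 ± 0.036, limma adjusted p = 5.5e-05). Hvcn1 rose by 0.33 ± 0.078 (limma adjusted p = 0.0044), with no overlap between the groups. Rap1a had 96.5, 108.7 and 102 TPM with C. albicans, against 95.8, 91.7 and 82.8 TPM with PBS (0.18 ± 0.053, limma adjusted p = 0.014). The Rap1a call was lost with the length and GC trend removed (0.036, limma adjusted p = 0.45), with the 6 WT libraries alone (0.18, 0.065), without WT C. albicans replicate 2 (0.14, 0.069) and without WT PBS replicate 3 (0.12, 0.057). Rac1, Rac2 and Cyba were called higher under some alternatives, by at most 0.11. Rac1 passed with median-ratio factors and voom (lowest limma adjusted p = 0.034). Rac2 passed with that trend removed, with or without the replicate block (lowest limma adjusted p = 0.022), and Cyba with the trend removed and the block (0.038).

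Cybb and Ncf1 in WT cells turned on 1 library and on the processing. Cybb had 456, 640.1 and 642 TPM with C. albicans, against 500.2, 488 and 457 TPM with PBS, so replicate 1 lay below all 3 PBS libraries and the others above them. With all 12 libraries Cybb did not pass (0.25 ± 0.098, limma adjusted p = 0.056), and without WT C. albicans replicate 1 it did (0.41 ± 0.037, adjusted p = 1.9e-06). Ncf1 was at 0.10 ± 0.046 (limma adjusted p = 0.086) and at 0.17 ± 0.026 without that library (adjusted p = 1.8e-04). That left 5 of 8 genes called, all higher, where 48.1% of all tested genes were called in either direction, against 44.4% with all libraries. Of the 11280 genes tested without that library, 1885 were called higher and 3536 lower. With all 12 libraries Cybb and Ncf1 were both called with median-ratio factors and with voom. Cybb was also called with upper quartiles, and Ncf1 with the length and GC trend removed. With that trend removed Cybb did not reach an unadjusted p under 0.05 by limma. In the authors' deposited table, whose comparison matches C. albicans over PBS in WT cells by its values, Cybb has a log2 fold change of 0.35 (adjusted p = 0.014), Ncf1 0.19 (0.00137), Ncf4 0.36 (1.0e-13), Rap1a 0.27 (4.9e-05) and Hvcn1 0.43 (8.2e-06). Cyba, Rac1 and Rac2 have adjusted p-values of 0.095, 0.050 and 0.091 in the authors' deposited table. It calls 5 of 8 higher, where 18.6% of its 13587 genes with an adjusted p were higher.

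In KO cells 0 of 8 were called for the response by limma, where 3.95% of all tested genes were called higher and 3.15% lower. At an unadjusted p under 0.05 by limma the response included Cyba, Hvcn1, Ncf1, Ncf4 and Rap1a. The share of all tested genes at that threshold is not given here, so no excess can be read from these names. For 6 of the 8 the C. albicans libraries lay wholly above the PBS libraries, where 11.9% of all tested genes did so and 21.1% lay wholly below: Cybb, Cyba, Ncf1, Ncf4, Rap1a and Hvcn1, with log2 fold changes of 0.089 (Cyba) to 0.21 (Hvcn1). With the 6 KO libraries alone 5 of 8 were called (11.97% of all tested genes, 628 higher and 722 lower), namely Cybb (0.18, limma adjusted p = 0.0049), Ncf1, Ncf4, Rap1a and Hvcn1. Without WT C. albicans replicate 1, which sets part of the shared spread, 3 were called (13.2% of all tested genes, 663 higher and 824 lower). These were Cybb (limma adjusted p = 0.0041), Ncf1 and Hvcn1. With voom on recovered reads 3 were called (9.01% of all tested genes, 768 higher and 248 lower), namely Cyba, Ncf4 and Rap1a. All of these calls of members were higher.

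Whether the response differed between genotypes was tested by the interaction, the response in KO cells minus that in WT cells. It was called for 1 of 8 genes, Ncf4, where 13.9% of all tested genes were called, 7.53% higher and 6.33% lower. The level of Ncf4 with C. albicans was 107% of PBS in KO cells, against 122% in WT cells (difference of log2 fold changes -0.19 ± 0.051, limma adjusted p = 0.029). The call was lost with the variance trend off (adjusted p = 0.077) and in 8 of the 12 fits that left out 1 library. For Cybb the interaction was -0.072 ± 0.139 (limma adjusted p = 0.783) with all libraries and -0.24 ± 0.049 (adjusted p = 0.0043) without WT C. albicans replicate 1.

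Genes that act on the oxidase were taken as lists by role, and each count is of the members that passed the filter on low values. Their counts are read against the shares of all tested genes given above for the same comparison: 12.4% higher and 27.5% lower in KO cells with C. albicans, 6.14% and 26.2% in KO cells with PBS, and 16.1% and 28.3% for the response in WT cells. The 7 lists counted here held 57 tested genes, of which 5 were higher and 26 lower in KO cells with C. albicans and 5 higher and 24 lower with PBS. Other NADPH oxidases were mostly below the filter: Nox1, Nox3, Nox4, Noxa1, Duox1, Duox2, Duoxa1 and Duoxa2 did not reach it. Cybc1, a chaperone needed for the membrane subunits in mice and humans, averaged 73.3 ± 0.531 TPM in KO cells with PBS, against 84.6 ± 3.62 TPM in WT cells with PBS (-0.20 ± 0.049, limma adjusted p = 0.0070). That call was lost with median-ratio factors (-0.11, limma adjusted p = 0.11), upper quartiles (-0.089, 0.16) and voom (-0.11, 0.090). It also fell with C. albicans in WT cells, to 72.0 ± 4.92 TPM (-0.23 ± 0.049, limma adjusted p = 0.0022).

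Rac exchange factors load GTP onto Rac. Of 13 tested, 1 was called higher and 10 lower with C. albicans, and 0 higher and 9 lower with PBS, with medians of -0.28 in both. Called members of this list stayed mostly lower under other scalings: 9 and 7 were lower with median-ratio factors, 8 and 6 with upper quartiles and 7 and 7 with the length and GC trend removed. Called genes at large were also mostly lower with that trend removed. Of 10694 genes tested there, 895 were higher and 2812 lower with C. albicans, and 384 and 2686 with PBS. With median-ratio factors 2457 and 1594 of 11281 were lower, and with upper quartiles 2036 and 1425 of 11279. Vav1, an exchange factor downstream of fungal and antibody receptors, averaged 192 ± 1.12 TPM in KO cells with C. albicans and 177 ± 3.20 TPM with PBS, against 251 ± 4.67 and 233 ± 4.86 TPM in WT cells. Its log2 fold changes were -0.39 (limma adjusted p = 9.3e-07) and -0.40 (2.1e-06). Prex1, which responds to phosphoinositides and G protein subunits, was lower by similar amounts, at -0.54 with C. albicans (limma adjusted p = 1.1e-05) and -0.55 with PBS (2.1e-05). Dock2 was lower with PBS (-0.36, limma adjusted p = 1.8e-05). Swap70 averaged 45.7 ± 0.344 TPM in KO cells with C. albicans, against 69.8 ± 5.17 TPM in WT cells (-0.60, limma adjusted p = 5.5e-06), and it rose in WT cells with C. albicans (0.43, 5.9e-05).

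Among 10 tested Rac GAPs and GDIs, which turn Rac off or hold it in the cytosol, 1 was higher and 1 lower in KO cells in each condition. Abr, a GAP for Rac, was lower with C. albicans (-0.58, limma adjusted p = 1.6e-05) and with PBS (-0.34, 0.0012). With the length and GC trend removed Abr with PBS was -0.15 (limma adjusted p = 0.10), and the list held 1 higher and 4 lower with C. albicans and 0 of either with PBS. Arhgap25, another GAP for Rac, averaged 59.5 ± 1.08 TPM in KO cells with C. albicans, against 47.9 ± 6.96 TPM in WT cells (0.32, limma adjusted p = 0.0045). Rapgef2, an exchange factor for Rap, was at 12.7 ± 0.112 TPM in KO cells with C. albicans, against 22.8 ± 1.70 TPM in WT cells (-0.80, limma adjusted p = 2.5e-06), and was lower with PBS as well (-0.51, 1.7e-04). Rap1b, the close paralog of Rap1a, rose with C. albicans in WT cells, to 832 ± 54.3 TPM against 645 ± 39.2 TPM with PBS (0.37, limma adjusted p = 5.8e-05), as did Rap2b (0.44, 1.1e-05).

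Of 10 tested kinases that phosphorylate oxidase subunits, 1 was higher and 5 lower in KO cells with C. albicans, and 0 higher and 4 lower with PBS. With median-ratio factors the counts were 3 and 4 with C. albicans and 1 and 0 with PBS, so the direction of this list rests on the scaling. Pak2, a kinase bound by GTP-loaded Rac, was lower with C. albicans (-0.39, limma adjusted p = 3.6e-05) and with PBS (-0.20, 0.0048), the call with PBS being lost with median-ratio factors (-0.11, 0.080), upper quartiles (-0.089, 0.14) and voom (-0.11, 0.060). Prkcd, a protein kinase C that phosphorylates Ncf1, was lower with C. albicans (-0.30, limma adjusted p = 1.1e-04). Of 7 lipid enzymes 0 were higher and 2 lower with C. albicans, and 0 higher and 5 lower with PBS. With upper quartiles the counts were 2 and 2 with C. albicans and 0 and 2 with PBS, and with median-ratio factors 0 and 3 with PBS. Pik3r5, a regulatory subunit of phosphoinositide 3-kinase gamma, averaged 150.0 ± 1.51 TPM in KO cells with C. albicans, against 239 ± 3.66 TPM in WT cells (-0.67, limma adjusted p = 1.0e-07). In WT cells it rose with C. albicans by 0.76 (limma adjusted p = 7.0e-09) and in KO cells by 0.33 (8.2e-05). Pik3cg, the catalytic subunit of that kinase, was lower in KO cells with C. albicans as well (-0.73, limma adjusted p = 6.0e-05).

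Of 8 tested transcription factors known to act on Cybb, 1 was higher and 6 lower in KO cells with C. albicans, and 0 higher and 4 lower with PBS. With upper quartiles 1 was higher and 3 lower in each condition. In WT cells 6 rose and 1 fell with C. albicans. Irf1, an interferon regulatory factor, averaged 84.5 ± 2.06 TPM in KO cells with C. albicans and 38.0 ± 1.14 TPM in KO cells with PBS, against 125.0 ± 15.8 and 48.1 ± 0.542 TPM in WT cells. It rose with C. albicans by 1.13 in KO cells (limma adjusted p = 1.6e-07) and by 1.35 in WT cells (7.4e-09). Irf8, an interferon regulatory factor of myeloid cells that can bind DNA together with PU.1, averaged 158 ± 1.67 and 174 ± 4.71 TPM in KO cells, against 135 ± 7.51 and 209 ± 11.9 TPM in WT cells. It fell with C. albicans in WT cells by 0.62 (limma adjusted p = 4.2e-07) and was lower in KO cells with PBS (-0.26, 0.0010). Nfkb1 was lower in KO cells with C. albicans (-0.74, limma adjusted p = 1.3e-05), and Cebpb rose with C. albicans in both genotypes (0.49 in KO cells, 2.0e-05, and 0.75 in WT cells, 9.2e-08). Spi1, the gene of PU.1, named after its values were seen, averaged 635.5 ± 20.6 and 642 ± 21.2 TPM in KO cells, against 709.8 ± 72.2 and 644 ± 15.4 TPM in WT cells. It passed in no comparison before any alternative was applied. Its calls turned on WT C. albicans replicate 1 and on the processing. Without that library Spi1 was called for the response in WT cells (0.22, limma adjusted p = 2.0e-04) and for KO cells with C. albicans (-0.24, 1.3e-04). With all libraries the response was 0.13 (0.079) and passed with median-ratio factors (0.22, 0.021), voom (0.22, 0.0057) and the length and GC trend removed (0.23, 0.0041), while the knockout effect with C. albicans was -0.15 (0.052) and passed with that trend removed (-0.36, 2.0e-04).

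Of 7 tested enzymes that act on superoxide and peroxide, the products of the oxidase, 4 rose and 0 fell with C. albicans in WT cells and 2 rose and 0 fell in KO cells. Between genotypes 1 was higher and 2 lower in KO cells with C. albicans (2 and 1 with median-ratio factors, 3 and 1 with upper quartiles), and 4 were higher and 0 lower with PBS (5 and 0 with either kind of factor). With the length and GC trend removed the counts were 0 and 3 with C. albicans and 2 and 0 with PBS. Sod2, the mitochondrial superoxide dismutase, averaged 89.2 ± 1.43 TPM in KO cells with C. albicans and 59.3 ± 0.727 TPM in KO cells with PBS, against 211 ± 54.9 and 70.6 ± 2.20 TPM in WT cells. Its response was 0.58 in KO cells (limma adjusted p = 0.024) and 1.53 in WT cells (2.5e-06). The call in KO cells was lost with the variance trend off (0.055), with no filter on low values (0.069) and without any 1 of the 6 KO libraries (0.057 to 0.083). Sod1, the cytosolic form, was higher in KO cells with PBS (0.33, limma adjusted p = 1.0e-04) and rose with C. albicans in both genotypes. Prdx1, a peroxidase, averaged 1404.3 ± 21.4 TPM in KO cells with C. albicans and 1404.5 ± 42.7 TPM in KO cells with PBS, against 1666 ± 203 and 1178 ± 47.5 TPM in WT cells. It was therefore lower in KO cells with C. albicans (-0.24, limma adjusted p = 0.0128) and higher with PBS (0.25, 0.0121). The first call was lost with median-ratio factors (-0.18, limma adjusted p = 0.077), upper quartiles (-0.13, 0.19), the comparison's 6 libraries alone (-0.24, 0.055), and without WT C. albicans replicate 2 (-0.19, 0.058) or replicate 3 (-0.18, 0.058). The second was lost with the length and GC trend removed (0.12, 0.13).

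By the root mean square difference of centred log2 levels over the 12 libraries, the genes nearest to Cybb were Dock4 (0.070), Mitf (0.081), Malat1 (0.083), Itgal (0.091) and Ifit2 (0.094), out of 11280 genes tested. The same measure for Cybb against a flat line was 0.40. Dock4, itself an exchange factor for Rac and Rap, averaged 9.46 and 8.66 TPM in KO cells with C. albicans and PBS, against 17.9 and 15.1 TPM in WT cells. The genes nearest to Cyba were Ufc1 (0.032), Atp5g3 (0.036), Mrps17 (0.042), Ube2s (0.045) and C1qb (0.045), where Cyba against a flat line was 0.063. These distances were taken with no correction for the length trend, and Cybb is a long gene and Cyba a short one. The part of that trend in the distances was not tested.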

How the data were processed

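Polyadenylated RNA of 12 libraries was analysed, 3 in each group, grouped by their labelled genotype and treatment. The submitters' processing notes name the mm10 build, DESeq2 1.34.0, STAR 2.7.5a, cutadapt 2.6 and CASAVA 1.8. The sources used here do not name the read counter, its strand setting or the annotation. The authors deposited TPM for 25230 genes. Of these, 28 without a symbol were left out of the fits. The same table holds, per the file headers, the authors' mean normalised signal, log2 fold change with its standard error, Wald score, p-value and adjusted p-value for 1 comparison. Its values match C. albicans over PBS in WT cells, with a median absolute difference of 9.5e-04 in log2 fold change over 9298 genes. Whole reads were recovered from the TPM and the mean signal, with 100.0% of 171648 values within 0.01 of a whole read.

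Since the unit is TPM, limma 3.58.1 in R 4.3.3 was run on log2(TPM + 1) with 1 mean per group, the variance trend on and robust estimation off. The fit had 8 residual degrees of freedom and took the 11280 genes that reached 1 TPM in 3 libraries or more. Tests are two-sided, with Benjamini-Hochberg adjustment over all genes tested and a threshold of 0.05. The comparisons were the knockout effect with each treatment, the response in each genotype and their interaction. Members and lists were chosen with earlier results of these data known. The counts of 1 list of related genes are not reported here. Of the related lists, values are given for genes among the 3 with the smallest p of each list and comparison. Spi1 is outside that rule and was named after its values were seen. Text also names all 8 members, Piezo1, genes that share sequence with members, cell markers and the genes nearest to Cybb and Cyba.

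Alternatives were a pseudocount of 0.1, no filter on low values, no variance trend, median-ratio and upper-quartile factors, removal of a spline (4 degrees of freedom) in gene length and GC content (94.8% of tested genes had both), the 6 libraries of a comparison alone, a replicate block, and leaving out each library. Chosen after seeing the data were voom on recovered reads and the block with the length and GC trend removed. Lengths came from the TPM and reads, and coordinates and promoters from RefSeq (GRCm38.p6). Tables and figures were made with Python 3.11.15, pandas 2.3.3 and matplotlib 3.10.9.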

Additional observations from a re-analysis of the deposited data

Results flagged for a closer look

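The response to C. albicans differed between genotypes, by limma's interaction test adjusted over all genes, for 1 of the 8 oxidase and Rac genes and for 12 of the 57 tested genes in the related lists counted above, 4 with a higher value and 8 with a lower one, all named here. Ncf4 had an interaction of -0.19 (adjusted p = 0.029), a smaller rise in KO cells than in WT cells.

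The related genes are given as values of the response in KO cells minus that in WT cells. Swap70 had -0.32 (limma adjusted p = 0.019), Dock5, a Rac exchange factor that rose in WT cells by 0.31, had -0.41 (0.0089), and Arhgap25, which fell in WT cells by 0.57, had 0.52 (0.0060). Pik3r5 had -0.43 (2.6e-04), Pik3cd, the catalytic subunit of phosphoinositide 3-kinase delta, 0.36 (0.015), and Inpp5d, a phosphoinositide phosphatase, 0.40 (0.018). Rap1b, which is in none of those lists, had -0.25 (0.030). Cebpb had -0.26 (0.025), Irf8, which fell in WT cells by 0.62, had 0.49 (4.1e-04), and Nfkb1 had -0.40 (0.032). Sod2 had -0.95 (0.0068), Sod1 -0.22 (0.025) and Prdx1 -0.49 (0.0047). Of 12 fits that each left out 1 library, the call was lost in 10 for Nfkb1, 10 for Rap1b, 8 for Ncf4, 7 for Sod1, 5 for Cebpb and 1 for Swap70 (WT C. albicans replicate 2), and in none for the other genes named. Nfkb1, Rap1b, Sod1 and Cebpb also lost it with no filter on low values and, like Ncf4, with the variance trend off. Removing the length and GC trend ended it for Nfkb1 and Rap1b, and upper quartiles ended it for Sod1. Among the 11280 genes tested 13.9% were called for the interaction.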

How the results depend on the processing

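The falls of Cybb and Hvcn1 in both KO conditions and the rises of Ncf4 and Hvcn1 in WT cells kept their direction and call under every alternative run. Of 40 values (8 genes in 5 comparisons), 11 kept their direction and their call or lack of one throughout. Besides those falls and rises, these were values called in no fit. They were the interactions of Cyba, Hvcn1, Rac1 and Rac2 and the response of Rac1 in KO cells. The planned edgeR fit was not run, since the deposited unit is TPM. The cause of the changes below was not tested. Of the genes called, removing 1 library moved the response in KO cells between 420.0 and 1487 (801 with all), with 1487 without WT C. albicans replicate 1, and the interaction between 1036 and 2532 (1563 with all). The 6 KO libraries alone gave 1350.0.

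Of the 8 genes, 6 were called for the response in WT cells with median-ratio factors (41.1% of all tested genes) and with voom (42.0%), and 5 with the replicate block and the length and GC trend removed (42.5%). For the response in KO cells 1 was called with that trend removed (8.24%), 5 with the 6 KO libraries alone (11.97%) and 3 with voom (9.01%). The percents in this paragraph count both directions, while all these calls of members in the responses were higher. In WT cells 2577 of 11281 genes were called higher with median-ratio factors and 2647 of 11280 with voom. For the knockout effect with PBS 5 were called with median-ratio factors (28.4%) and 6 with upper quartiles (28.8%), with the trend removed (28.7%, and 27.7% with the block) and with voom (29.0%). Equal counts there hide different genes and directions. Upper quartiles called Cyba, Ncf4, Rac1 and Rac2 higher and Cybb and Hvcn1 lower. With the trend removed Cybb, Cyba, Ncf1, Ncf4, Rap1a and Hvcn1 were called, all lower. For the interaction 0 were called with the variance trend off (10.9% of all tested genes), where limma called Ncf4 alone at an unadjusted p under 0.05. Leaving out 1 library gave 2 to 5 for the response in WT cells, 0 to 3 in KO cells and 0 to 2 for the interaction. In those fits 35.9% to 48.1%, 3.72% to 13.2% and 9.18% to 22.5% of all tested genes were called, in the same order.

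The sign turned with the length and GC trend removed, with or without the block, for Cybb in the interaction (0.0087), Cyba in the knockout effect with PBS (-0.13) and with C. albicans (-0.12), Ncf1 in the interaction (-0.061), Ncf4 with PBS (-0.11), Rac2 with C. albicans (-0.032) and Rap1a in the interaction (0.083). It turned with median-ratio factors, upper quartiles and voom for Ncf1 in the interaction (-0.036, -0.011 and -0.036), Rac1 with C. albicans (0.044, 0.087 and 0.045) and Rap1a with PBS (0.039, 0.057 and 0.042), with upper quartiles for Rap1a with C. albicans (0.014), and with voom for Rac2 in the response in KO cells (5.5e-04). Without 1 library, values that turned ranged from -0.24 to 0.011 for Cybb in the interaction, -0.066 to 0.042 for Ncf1 and -0.076 to 0.028 for Rap1a in it, -0.015 to 0.047 for Cyba, -0.023 to 0.018 for Rac1 and -0.014 to 0.050 for Rac2 in the response in WT cells, -0.0054 to 0.056 for Rac2 with C. albicans and -0.011 to 0.047 for Ncf4 with PBS.

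With the length and GC trend removed, log2 Cybb over Cyba was -2.80 in KO cells with C. albicans and -2.88 with PBS, against -2.28 and -2.37 in WT cells. Ncf1 over Cyba was -2.95 and -3.02 in KO cells, against -2.79 and -2.92 in WT cells, and Ncf4 over Cybb was -0.017 and 0.041 in KO cells, against -0.30 and -0.49 in WT cells.

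The labels do not say whether replicate numbers pair the libraries. Deviations from the group means in libraries of the same number had correlations of -0.088 to 0.087, which cannot exclude a pairing. With the replicate block limma called 4919 genes (response in WT cells), 716 (response in KO cells), 3547 (KO over WT, PBS), 4402 (KO over WT, C. albicans) and 1418 (interaction), and the counts of the 8 genes were unchanged in all 5 comparisons, while Spi1 passed for the response in WT cells (adjusted p = 0.046) and for KO cells with C. albicans (0.028). Depth gave at least 517 reads to each of the 8 genes in every library.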
